A study of Mus musculus with 12 samples.

Results

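The arms of the miR-221 and miR-222 hairpins were followed in microglial exosomes of the mouse brain after repetitive mild traumatic brain injury (rmTBI). The members are 4 mature miRNAs, mmu-miR-221-3p, mmu-miR-222-3p, mmu-miR-221-5p, and mmu-miR-222-5p, found by the exact match of their names to the miRNA names of the array files, 4 of the 1881 miRNAs measured. Male C57BL/6 mice received 4 closed-head impacts with an interval of 48 h and were studied at 3, 14, or 42 days post-injury (DPI), and sham mice received every step except the impact. Vesicles were purified from the papain-digested mixture of cerebral cortex and hippocampus and captured with an antibody to CD11b, a surface protein of microglia and of other myeloid cells. Each of the 4 groups (sham, 3 DPI, 14 DPI, and 42 DPI) had 3 single-color Agilent arrays, 12 in all. Whether an array holds the exosomes of 1 mouse or of several is not given in the sources used here, so the p-values measure the spread between these arrays, which may be technical.

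A miRNA hairpin is cut into a 5p arm and a 3p arm, and the arm that is kept guides a silencing complex to messenger RNAs that pair with its seed, the bases 2 to 8 from its 5′ end. miR-221 and miR-222 lie side by side on the X chromosome and are made from a common transcript, and their 3p arms are the ones that usually accumulate. They are abundant in endothelial and vascular smooth muscle cells, where they are known to repress the cell cycle inhibitor p27Kip1 and the stem cell factor receptor KIT.

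The mature sequences show what the arms share, and the seed is printed in capitals. They come from RefSeq on GRCm38.p6, where 3 of the 4 members had a mature entry. mmu-miR-222-5p had none. The only other miRNA of that table with the seed of the 3p arms was mmu-miR-1928, shown for comparison.
mmu-miR-221-3p: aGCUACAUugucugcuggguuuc
mmu-miR-222-3p: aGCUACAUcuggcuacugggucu
mmu-miR-1928: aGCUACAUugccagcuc
mmu-miR-221-5p: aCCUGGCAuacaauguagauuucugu

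Both 3p arms are 23 bases long and identical over their first 8 bases, which hold the whole seed. Counted position by position from the 5′ end and without gaps, 11 of the 23 bases are the same, and the arms differ only outside the seed. mmu-miR-1928 shares 10 first bases with mmu-miR-221-3p and 8 with mmu-miR-222-3p. The 5p arm of miR-221 has a different seed.

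The hairpins are shown for the place of the arms within them, with each arm that has a mature entry in capitals.
Mir221: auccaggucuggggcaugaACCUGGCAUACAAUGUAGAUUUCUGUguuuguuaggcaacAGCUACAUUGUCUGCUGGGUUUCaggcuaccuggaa
Mir222: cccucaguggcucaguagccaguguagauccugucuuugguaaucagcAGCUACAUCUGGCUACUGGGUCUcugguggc

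On GRCm38.p6 the Mir221 hairpin lies at chrX:19146294-19146388 and the Mir222 hairpin at chrX:19146893-19146971, both on the minus strand and with 504 bases between them. The mature mmu-miR-221-3p lies at chrX:19146307-19146329, mmu-miR-222-3p at chrX:19146901-19146923, and mmu-miR-221-5p at chrX:19146344-19146369.

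The arrays differed in overall brightness and in slide, and both differences ran along with the groups. The 75th percentile of intensity over the 230 miRNAs detected on all 12 arrays was 217 to 348 on the sham arrays and 401 to 619 at 3 DPI. For 14 DPI it was 588 to 1173, and for 42 DPI 1385 to 2936. Every array was divided by its own 75th percentile, and the log2 of that ratio is called the scaled signal below. Slide 1 held the 3 sham arrays and 3 DPI replicate 1, and slide 2 held the other 8, so for sham against 14 or 42 DPI the slide and the group cannot be told apart. Fewer exosomes of a kind and less of a miRNA per exosome cannot be told apart in such samples. The 3 comparisons with sham share the same sham arrays.

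The 3p arms were detected in every group and the 5p arms in none. Detection on an array required that 1 probe of the miRNA had more than 0.5 of its spots well above background, outlier spots aside. For mmu-miR-221-3p, 352 of 352 kept spots over the 12 arrays were well above background, and for mmu-miR-222-3p 348 of 352. For mmu-miR-221-5p 0 of 357 kept spots were, with probe means between -1.96 and 1.76 intensity units, against 25.8 to 1125 for the probes of mmu-miR-221-3p.

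mmu-miR-222-5p had 2 spots well above background among 347, both of 1 probe on 42 DPI replicate 1. That probe averaged 12.4 ± 3.14 intensity units there (SD over 10 spots), and it was the brightest of all 5p probe values. The 5p arms therefore stood at the floor of the scaled signal, -5.42, on all 12 arrays and could not be compared between groups. mmu-miR-1928, the third miRNA with the seed, was likewise not well above background on any array.

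**Figure D1:**
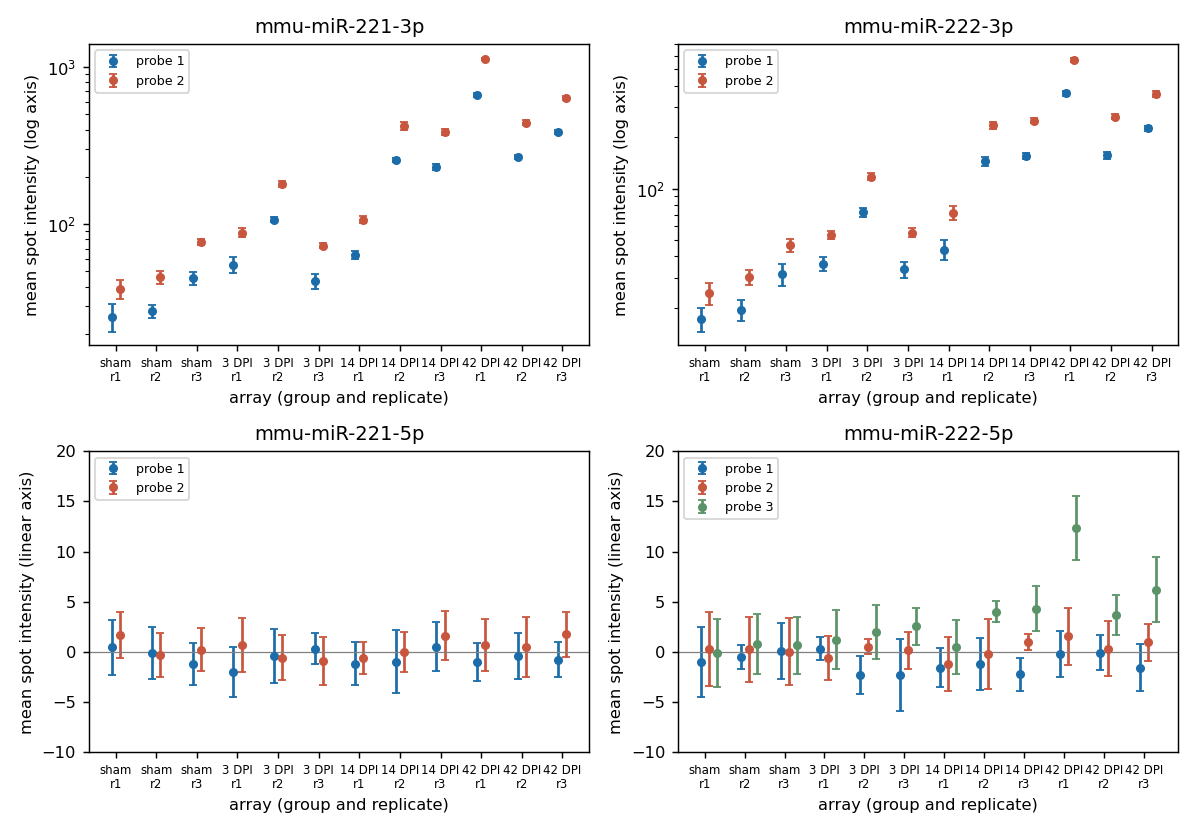
Mean spot intensity of each probe of the 4 members on the 12 arrays, with bars for the SD over the 10 to 15 spots of a probe; the upper panels have a log axis, the lower ones a linear axis. The probes of each 3p arm rose and fell together from array to array, while those of the 5p arms stayed near 0, up to 12.4 on 42 DPI replicate 1.

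Before scaling, the summed intensity of mmu-miR-221-3p was 64.6, 73.8, and 123 on sham replicates 1 to 3 and 144, 288, and 116 at 3 DPI. At 14 DPI it was 171, 677, and 617, and at 42 DPI it was 1792, 712, and 1021. All 42 DPI arrays were brighter than all sham arrays, as was the bulk of the miRNAs on them.

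After scaling, mmu-miR-221-3p stood at -2.14, -1.56, and -1.50 in sham, a mean of -1.73 ± 0.35 (SD, n = 3). At 3 DPI it stood at -1.48, -1.10, and -1.96, a mean of -1.51 ± 0.43. The 3 DPI arrays overlapped the sham arrays, with replicate 3 below sham replicates 2 and 3. At 14 DPI the arm stood at -1.78, -0.79, and -0.86, a mean of -1.14 ± 0.56. Here 2 arrays lay above every sham array, and replicate 1 lay below sham replicates 2 and 3. At 42 DPI it stood at -0.71, -0.96, and -0.86, a mean of -0.84 ± 0.12, and no array overlapped sham.

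mmu-miR-222-3p, the neighboring arm with the same seed, followed a like course. Its summed intensity was 41.6, 49.8, and 78.1 in sham, 89.9, 190, and 88.8 at 3 DPI, 116, 379, and 403 at 14 DPI, and 928, 420, and 583 at 42 DPI. Its scaled signal was -2.78, -2.12, and -2.15 in sham (-2.35 ± 0.37, SD, n = 3). At 3 DPI it was -2.16, -1.70, and -2.34 (-2.07 ± 0.33), with replicates 1 and 3 inside the range of sham and replicate 2 above it. At 14 DPI it was -2.34, -1.63, and -1.47 (-1.81 ± 0.47), again with replicate 1 inside the range of sham. At 42 DPI it was -1.66, -1.72, and -1.67 (-1.69 ± 0.032), above all sham arrays and with the smallest spread of the 4 groups.

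**Figure D2:**
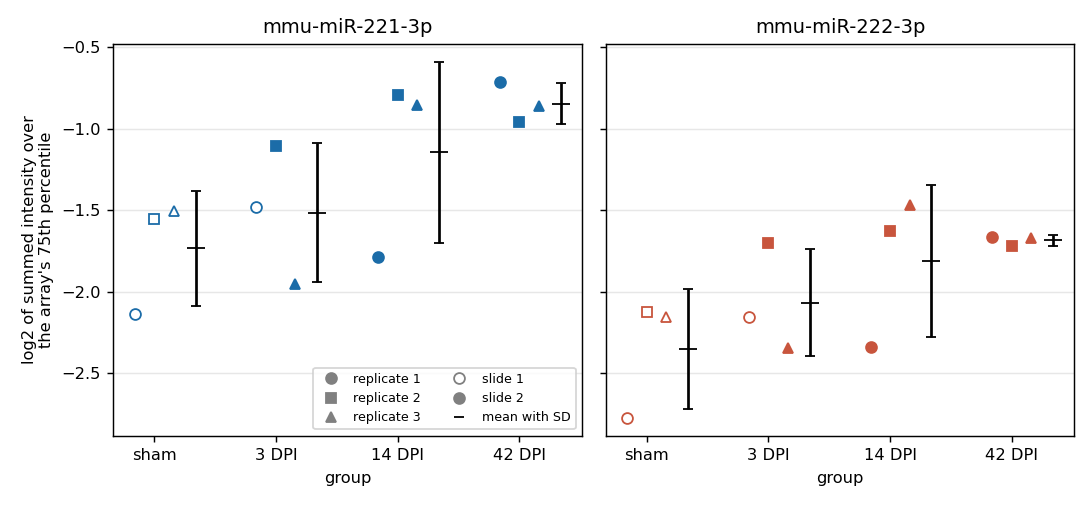
Scaled signal (log2 of the summed intensity over the 75th percentile of the array) of both 3p arms on each array by group, open points for slide 1 and filled points for slide 2, with the group mean and SD (n = 3). The group means rise in the order sham, 3 DPI, 14 DPI, 42 DPI for both arms, and 14 DPI replicate 1 lies near the sham arrays.

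Against sham, neither 3p arm passed the test at any time point. Groups were compared with limma over 486 miRNAs, those for which some group had 3 arrays with detection, two-sided and with Benjamini-Hochberg adjustment, and a miRNA was called at an adjusted p under 0.05. At 3 DPI mmu-miR-221-3p was 0.22 higher on the log2 scale (SE 0.31, 95% interval -0.48 to 0.92, adjusted p = 1). mmu-miR-222-3p was 0.28 higher (SE 0.27, interval -0.32 to 0.89, adjusted p = 1). Of all miRNAs tested 0% were called at this time, with 10 under 0.05 before adjustment, and the methods' t-test also called 0, with 2 before adjustment. On slide 1, where 3 DPI has replicate 1 alone, that array was 0.25 and 0.19 above the mean of sham, with no spread of its own.

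At 14 DPI mmu-miR-221-3p was 0.59 higher than in sham (SE 0.31, interval -0.11 to 1.29, adjusted p = 0.322). mmu-miR-222-3p was 0.54 higher (SE 0.27, interval -0.066 to 1.14, adjusted p = 0.288). Neither was among the 18 miRNAs called, 3.7% of those tested, a count that fell to 4 when arrays of the same replicate number were blocked. The 14 DPI arrays were higher than the sham array of the same number in every pair, by 0.36, 0.76, and 0.65 for mmu-miR-221-3p and by 0.43, 0.49, and 0.69 for mmu-miR-222-3p. This held for 25.1% of the miRNAs tested. With these pairs as a block and the 2 groups fitted alone, the SE fell to 0.115 and 0.0847 and the adjusted p-values were 0.115 and 0.0914 by limma (0.0147 and 0.00814 before adjustment). The labels give replicate numbers but no pairing. The pairs were taken from correlations in these same data, and a block so chosen lowers the SE, so the p-values of this fit are no independent support. Without 14 DPI replicate 1, in the unpaired fit, the differences were 0.91 and 0.80, each with an adjusted p of 0.0324 by limma. That fit called 90 of the 486 miRNAs higher and 77 lower, so the calls are not particular to the arms.

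The arms stood farthest from sham at 42 DPI, with all 3 arrays above all 3 sham arrays for both. mmu-miR-221-3p was 0.89 higher (SE 0.31, interval 0.19 to 1.59), which is 1.85-fold, with an unadjusted p of 0.0188 and an adjusted p of 0.0512 by limma. mmu-miR-222-3p was 0.67 higher (SE 0.27, interval 0.062 to 1.27), which is 1.59-fold, with an unadjusted p of 0.0342 and an adjusted p of 0.0744 by limma. Both values thus missed the threshold at a time when 35.8% of all miRNAs tested passed it. That all 42 DPI arrays lay above all sham arrays held for 32.5% of the miRNAs tested, so it is not particular to these arms.

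The call at 42 DPI depended on how the arrays were scaled and fitted. Leaving out of arrays aside, 10 of 16 alternatives for mmu-miR-221-3p brought the adjusted p under 0.05, and 5 of 16 for mmu-miR-222-3p did. Among these, the number of all 486 miRNAs called higher ran from 66 with the software total signal to 418 with no scaling, against 70 as reported. With only the miRNAs detected on all arrays it was 38 of 230. The tally is thus not shown to be particular to the arms. Without 14 DPI replicate 1, which enters the estimate of the spread alone, both arms were called (adjusted p = 0.015 and 0.0286 by limma). That fit called 112 of the 486 miRNAs higher and 144 lower, so the calls are not particular to the arms. With the slide as a block, the differences from sham were 0.94 and 0.53 with adjusted p-values of 0.321 and 0.482 by limma, and 0 miRNAs in all were called (108 under 0.05 before adjustment). In that fit 3 DPI replicate 1 alone links sham to the slide of the other arrays. With the normexp background correction, mmu-miR-221-3p was 0.23 higher and mmu-miR-222-3p turned to -0.27, while the median of all miRNAs tested moved to -1.67, against -0.094 in the values reported. Normexp added an offset of 50 to each spot. Probe means of the 3p arms were 17.3 to 77.2 in sham and 157 to 1125 at 42 DPI, so the offset weighs most on the sham values. Taken relative to the median of all miRNAs tested under the same setting, the arms were higher at 42 DPI under every scaling tried, by 0.73 to 1.90 for mmu-miR-221-3p and 0.55 to 1.46 for mmu-miR-222-3p. By definition as many miRNAs lie above that median as below it, and the settings reuse the same arrays. The share of miRNAs above it under every setting was not counted, so this is not shown to be particular to the arms.

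**Figure D3:**
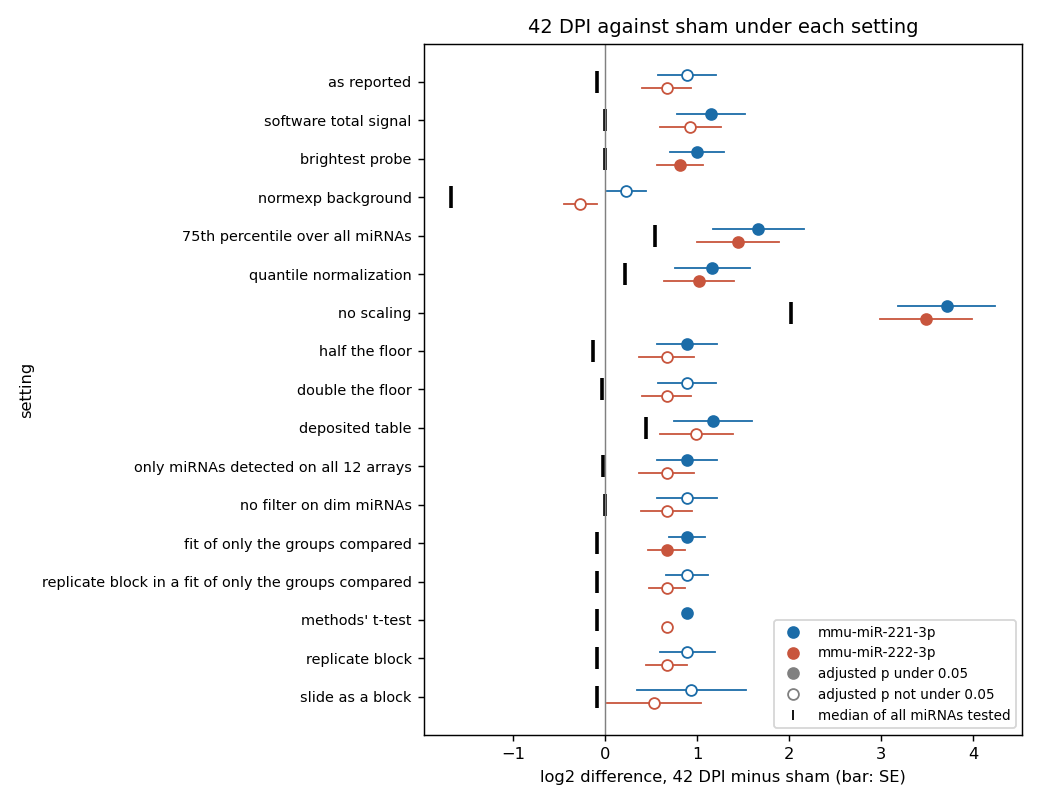
Log2 difference of 42 DPI minus sham for both 3p arms under each setting, with bars for the SE (none for the methods' t-test), filled points for an adjusted p under 0.05, and black ticks for the median of all miRNAs tested. The values as reported are 0.89 and 0.67, the points lie to the right of the tick in every line, and mmu-miR-222-3p is below 0 only with normexp.

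Each arm was read by 2 probes, which gave like differences. At 42 DPI the probes of mmu-miR-221-3p were 0.87 and 0.90 above sham on the scaled log2 scale, and those of mmu-miR-222-3p 0.59 and 0.72. At 14 DPI they were 0.56 and 0.61 above sham for mmu-miR-221-3p, and 0.45 and 0.59 for mmu-miR-222-3p. Spots of 1 probe on 1 array varied with a coefficient of variation of 2.04% to 19.7% for mmu-miR-221-3p and 2.95% to 15.8% for mmu-miR-222-3p, so the number of arrays, and not the number of spots, limited the precision.

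Between the time points, the order of the group means was sham, 3 DPI, 14 DPI, and 42 DPI for both arms, and no pair of neighbors in that order differed beyond its spread. From 3 to 14 DPI mmu-miR-221-3p differed by 0.37 (SE 0.31, adjusted p = 0.536 by limma) and mmu-miR-222-3p by 0.25 (SE 0.27, adjusted p = 0.598), beside 1.23% of miRNAs called. From 14 to 42 DPI they differed by 0.30 (adjusted p = 0.545) and 0.13 (adjusted p = 0.745). Here 0% were called by limma, with 55 under 0.05 before adjustment, and 0 by the methods' t-test, with 22 before adjustment. Without 14 DPI replicate 1, both of these last differences turned negative, -0.021 and -0.14.

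The widest step between injury groups was from 3 to 42 DPI. mmu-miR-221-3p was 0.67 higher at 42 DPI (SE 0.31, interval -0.033 to 1.37, adjusted p = 0.103 by limma), and its 3 arrays at 42 DPI lay above all 3 arrays at 3 DPI, as held for 29.6% of miRNAs tested. mmu-miR-222-3p was 0.38 higher (SE 0.27, interval -0.22 to 0.99, adjusted p = 0.252), and 3 DPI replicate 2 lay within its 42 DPI arrays. Of all miRNAs tested 41.6% were called in this comparison, and neither arm was among them. On slide 2 alone, with 2 of the 3 DPI arrays and every 42 DPI array, the differences were 0.69 and 0.34 (adjusted p = 0.197 and 0.399 by limma), and 57 miRNAs were called.

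**Figure D4:**
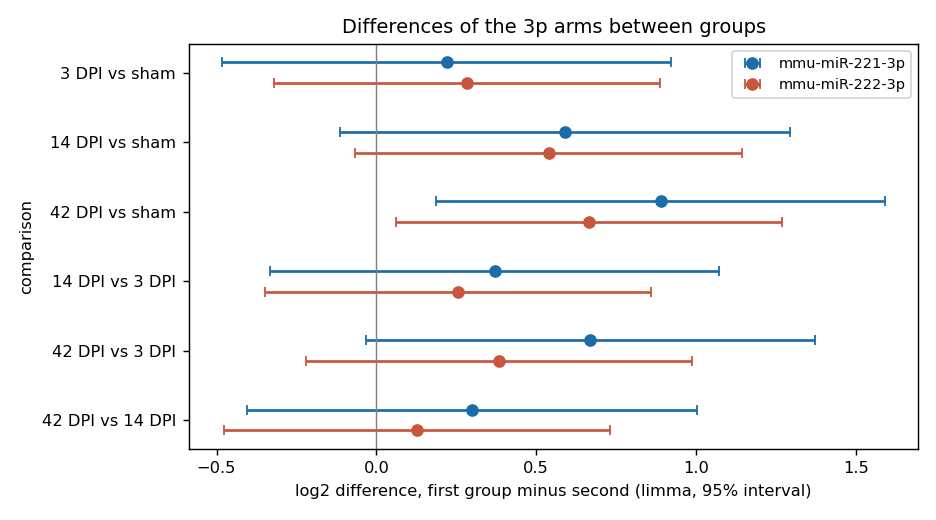
Log2 difference of the scaled signal, first group minus second, for both 3p arms in the 6 comparisons, with the 95% interval from limma. The intervals of 42 DPI against sham, 0.19 to 1.59 and 0.062 to 1.27, are the only ones that lie wholly above 0, before adjustment.

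The difference between the 2 arms within an array is not moved when an array is divided by a constant, and asks whether the arms changed in step. Their probes differ in brightness, so the size of the difference says nothing of which arm was more abundant. As log2 intensity of mmu-miR-222-3p minus that of mmu-miR-221-3p, it was -0.64, -0.57, and -0.65 in sham (-0.62 ± 0.045, SD, n = 3). It was -0.68, -0.60, and -0.39 at 3 DPI (-0.55 ± 0.15) and -0.56, -0.84, and -0.61 at 14 DPI (-0.67 ± 0.15). At 42 DPI it was -0.95, -0.76, and -0.81 (-0.84 ± 0.097), below every sham and every 3 DPI array.

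The error of 1 such value from the spread over spots was between 0.01 and 0.059, smaller than the spread between the arrays of most groups. The shift from sham to 42 DPI was -0.22 and that from 3 to 42 DPI -0.29. Each had an exact permutation p of 0.1, two-sided, the smallest that 3 arrays against 3 allow, and 0.3 after Benjamini-Hochberg adjustment over the 6 pairs of groups. Over the 4 groups together the exact permutation test gave p = 0.0737, so unequal change of the arms was not detectable at this number of arrays in the values as reported. It passed 0.05 without 14 DPI replicate 2, with an exact permutation p of 0.0249, and with normexp, with an exact permutation p of 0.00682. Normexp added an offset of 50 to each spot, which draws the difference toward 0 most on the dimmest arrays. A shift with brightness is thus built in, so the normexp p cannot show unequal change. Quantile normalization, which also moves the difference, gave shifts to 42 DPI of -0.15 from sham and -0.048 from 3 DPI and an exact permutation p of 0.539 over the groups.

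**Figure D5:**
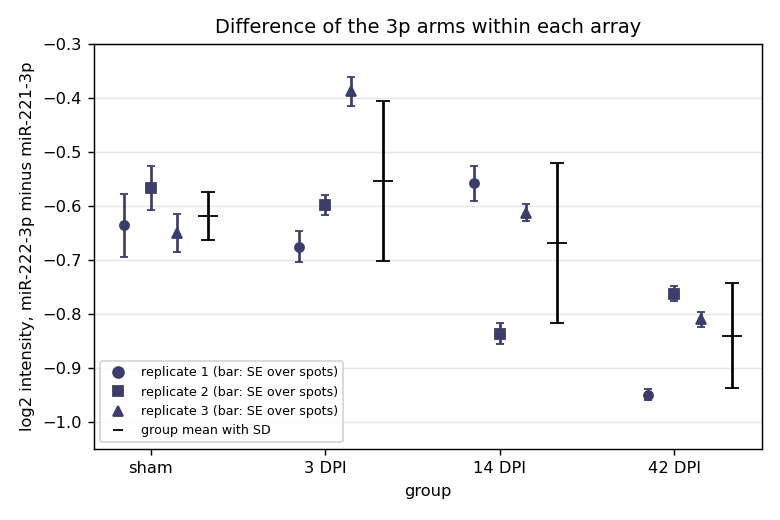
Log2 intensity of mmu-miR-222-3p minus that of mmu-miR-221-3p on each array, with bars for the SE over spots, and the group mean with SD (n = 3). The 42 DPI arrays lie between -0.95 and -0.76 and the sham arrays between -0.65 and -0.57.

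Over the 12 arrays, the scaled signals of the 2 arms had a Pearson correlation of 0.967, given as a description, as the arrays share groups, slides, and scaling. Among the 228 other miRNAs detected on all 12 arrays, those most like mmu-miR-221-3p were mmu-miR-381-3p (0.981), mmu-miR-495-3p (0.979), mmu-miR-434-5p (0.979), mmu-miR-338-3p (0.976), and mmu-miR-29c-5p (0.975). Those most like mmu-miR-222-3p were mmu-miR-377-3p (0.981), mmu-miR-9-5p (0.959), mmu-miR-434-5p (0.957), mmu-miR-93-5p (0.954), and mmu-miR-338-3p (0.953). mmu-miR-434-5p and mmu-miR-338-3p were near both arms. mmu-miR-222-3p ranked 10th of 229 by its likeness to mmu-miR-221-3p, and mmu-miR-221-3p the second by its likeness to mmu-miR-222-3p.

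Other miRNAs known from endothelial cells and blood vessel growth give the arms their context. Of 18 listed miRNAs 14 were tested, and at 42 DPI against sham 4 were called higher and 1 lower, that is 5 of 14 beside 35.8% of all miRNAs. The median difference of the list was 0.20, against -0.094 over all miRNAs tested. At 3 and 14 DPI against sham, 0 miRNAs of this list or of the lists that follow were called by limma. With the slide as a block none of the calls at 42 DPI named for these lists held. The largest rise was that of mmu-miR-23a-3p, a member of the miR-23/27/24 clusters that act in vessel growth, at 1.04 (adjusted p = 0.0114 by limma), and it stayed higher under every scaling. mmu-miR-27b-3p, mmu-miR-27a-3p, and mmu-miR-23b-3p, of the same clusters, were called too, at 1.02, 0.85, and 0.81. With no filter these calls were lost, at adjusted p = 0.0583 for mmu-miR-23a-3p and 0.0604, 0.067, and 0.0884 for mmu-miR-27b-3p, mmu-miR-27a-3p, and mmu-miR-23b-3p. With normexp mmu-miR-27b-3p was 0.20 higher and not called (adjusted p = 0.317). The clusters did not rise as a whole, as mmu-miR-24-3p was 0.22 higher and not called (adjusted p = 0.46 by limma). The 1 fall was that of mmu-miR-296-5p, at -1.07 (adjusted p = 0.00745), which turned to 1.75 with no scaling, when the median of all miRNAs was 2.02. This call was also lost with quantile normalization (-0.49, adjusted p = 0.0681), the 75th percentile of all miRNAs (-0.30, adjusted p = 0.257), and the deposited table (-0.52, adjusted p = 0.0827).

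In the endothelial and mural marker list, 1 of 4 miRNAs was called higher at 42 DPI and 0 lower, beside 70 higher and 104 lower of all 486 tested. The median difference of this list was 0.19. mmu-miR-126a-5p and mmu-miR-145a-5p were detected on 0 sham arrays and on all 3 arrays at 42 DPI. The floor of the scaled signal held their differences at 0.062 and 0, so neither could be judged, and the median rests in part on them. mmu-miR-126a-3p, which marks endothelial cells, was detected on all 12 arrays and was 0.33 higher at 42 DPI than in sham (adjusted p = 0.278 by limma). mmu-miR-143-3p, of vascular smooth muscle, was not well above background in sham and was detected on all 42 DPI arrays, so no fold against sham is given. It passed the filter only through 14 and 42 DPI, so its call at 42 DPI (adjusted p = 0.0315 by limma) is no support for a rise. With normexp its difference turned to -0.95. The call was lost with the software total signal (adjusted p = 0.311) and with no filter (0.153). The summed scaled signal of the 4 listed miRNAs was 0.12 to 0.58 in sham, -0.25 to 0.55 at 3 DPI, and 0.21 to 0.82 at 14 DPI. For 42 DPI it was 0.60 to 0.82. Its highest sham value lay just under its lowest 42 DPI value, and the part of these cells in the levels of miR-221 and miR-222 was not tested.

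Of the lists for nervous tissue, that of oligodendrocytes had 2 of 3 miRNAs called higher and 0 lower at 42 DPI, beside 70 higher and 104 lower of all 486 tested. It was led by mmu-miR-219a-2-3p at 1.23 (adjusted p = 0.00798 by limma), which was -0.09 with normexp, where the median of all miRNAs was -1.67, and 0.24 (adjusted p = 0.854) with the software total signal. The summed scaled signal of the list was 0.85 to 1.33 in sham, 1.09 to 1.86 at 3 DPI, and 1.11 to 2.04 at 14 DPI. All 42 DPI arrays lay above all sham arrays, at 2.04 to 2.15. In the neuron list 2 of 6 were called higher and 0 lower, beside 70 higher and 104 lower of all 486 tested. It was led by mmu-miR-128-3p at 1.05 (adjusted p = 0.0196 by limma), higher under every scaling, though the call was lost with no filter (adjusted p = 0.0985). mmu-miR-124-3p, the most neuronal of the list, ran otherwise, detected on 0 sham arrays, 2 arrays of 3 DPI, 3 of 14 DPI, and 0 of 42 DPI. The sum of this list was 3.97 to 4.39 in sham, 3.96 to 4.42 at 3 DPI, and 4.04 to 4.97 at 14 DPI. At 42 DPI, with 4.84 to 5.04, it too lay above sham on every array, and the part of both lists in the result was likewise not tested.

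The miRNAs known to mark myeloid cells, the labeled source, were mostly below background in sham. Of 4 listed myeloid miRNAs, mmu-miR-223-3p was detected on 1 of 3 sham arrays and mmu-miR-142a-3p, a marker of blood and myeloid cells, on none, while both were detected on all 42 DPI arrays. The other arms, mmu-miR-142a-5p and mmu-miR-223-5p, were not detected on any array. None of the 2 tested was called at 42 DPI, and the sum of the list was -2.88 to -2.57 in sham, -2.85 to -2.74 at 3 DPI, and -3.03 to -2.66 at 14 DPI. Its range at 42 DPI, -2.74 to -2.55, overlapped that of sham. In the erythrocyte list, mmu-miR-144-3p and mmu-miR-144-5p were not detected on any array, and mmu-miR-451a, the defining miRNA of red cells, was detected on 0 sham arrays and on 2 of 3 arrays in each injury group. Over all miRNAs detection rose too, from 243 to 285 miRNAs per sham array to 490 to 579 at 42 DPI, and the mean scaled signal of mmu-miR-451a was -4.37 in sham and -4.62 at 42 DPI. mmu-miR-486a-5p was below background throughout sham and detected on all 42 DPI arrays, and no direction is given for it, as the sign of its difference changed with the scaling. The sum of this list was -2.93 to -2.56 in sham, -2.92 to -2.17 at 3 DPI, and -3.14 to -2.93 at 14 DPI. At 42 DPI it was -3.32 to -2.95, with the highest value just under the lowest of sham. None of the listed miRNAs was detected on any sham array, so no direction is given for the sum either. The part of this list in the result was not tested.

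Among 5 inflammation-linked miRNAs 3 were tested, and at 42 DPI 1 was called higher and 0 lower, beside 70 higher and 104 lower of all 486 tested. The 1 called in this list was mmu-miR-21a-5p, a miRNA induced in activated glia, which was 0.86 higher than in sham (adjusted p = 0.0456 by limma). Its difference stayed positive under every scaling, but the call was lost with the replicate block (adjusted p = 0.0656, and 0.0647 with the 2 groups fitted alone), with double the floor (0.0627), and with no filter (0.21). mmu-miR-146b-5p was 0.68 higher (adjusted p = 0.108 by limma), though it was detected on only 1 of the 3 sham arrays. mmu-miR-146a-5p, a brake on NF-κB signaling, was detected on 0, 1, 2, and 3 of the 3 arrays of sham, 3, 14, and 42 DPI, so no fold against sham is given. mmu-miR-155-5p was detected on 1 array, of 42 DPI.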

How the data were processed

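As scanner output, made with Agilent Feature Extraction 10.7.1.1 per the submitters' processing notes, the authors deposited a background-corrected linear intensity for every spot, with no scaling between arrays. A second table deposited by the authors holds log2 values, whose scaling and centering are not given in the sources used here; its lowest value is -3.32. From the intensities, control and outlier spots were left out, spots were averaged per probe, and probes summed per miRNA. The sum was divided by the 75th percentile of the array, taken over the 230 miRNAs with detection on every array, floored at -5.42 on the log2 scale (the median over arrays of the lowest detected value), and log2-transformed. The 486 tested miRNAs were fitted with limma 3.58.1 in R 4.3.3 over all 12 arrays without covariates, and the fit was tested on simulated data. Python 3.11.15 (SciPy 1.17.1, NumPy 2.4.6, pandas 2.3.3) ran the exact permutation tests, and Matplotlib 3.10.9 drew the figures. The methods' t-test is 1 of the tests that the study's methods name for its data in general, run on the same values. No spot was saturated.

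Deviations from the group means of same-numbered sham and 14 DPI arrays correlated across miRNAs at 0.84, 0.44, and 0.74, which takes the numbers as pairs there from the correlations alone. Each other pair of groups had correlations of both signs. The members and lists were chosen with earlier results of these data known, the lists from general knowledge. Named were the members, miRNAs with their seed, the 5 most correlated with each 3p arm, and the largest called rise and fall of each list; other listed miRNAs named were chosen after their values were seen. Alternatives changed the signal (software total, brightest probe, deposited table), the background correction (normexp with an offset of 50), the scaling, the floor, the filter, the arrays in the fit, and the block, and left out each array in turn. The quantitative PCR and later experiments were not analysed here.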

Additional observations from a re-analysis of the deposited data

Results flagged for a closer look

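mmu-miR-222-5p carried signal in columns that the comparisons did not use. On 42 DPI replicate 1 the total gene signal of the scanner software for this arm was 256, while its brightest probe averaged 12.4 intensity units there with 2 of 10 spots well above background, and on the other 11 arrays the total was 0.1. The value equals the sum of the total of mmu-miR-222-3p on the same array, 254, and that of this probe, 2.25. The comparisons used the probes themselves.

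In the deposited table, mmu-miR-222-5p stood at 1.63, 2.45, and 0.82 in sham and between -3.32 and -1.70 on the 9 injury arrays, so the lowest sham value was 2.52 above the highest injury value, although 0 spots of this arm on the sham arrays were well above background. Of the 83 miRNAs of the table that were detected by the software on some array but by no probe under the share of spots used here, 25 had all sham values above all injury values. The 3 sham values of mmu-miR-222-5p were evenly spaced, with steps of 0.817 and 0.817, as were those at 3 DPI, with steps of 0.612 and 0.612. Over the table, the middle of the 3 values of a group was the mean of the other 2 within 0.001 in 643 of 2463 groups of values (26.1%), against 8 of 1722 (0.465%) in the total signals of the scanner software. The 3p arms showed no such spacing in any of the 4 groups, and mmu-miR-221-5p stood at -3.32 throughout.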

How the results depend on the processing

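The number of arrays, 3 per group, limited the precision, and for sham against 14 and 42 DPI the slide and the group cannot be told apart. For mmu-miR-221-3p at 42 DPI against sham, 0.89 and not called as reported, the adjusted p was 0.0372 with the software total signal (1.15), 0.0351 with the brightest probe (1.00), 0.0192 with the 75th percentile over all miRNAs (1.66), 0.0375 with quantile normalization (1.16), 9.29e-06 with no scaling (3.71), 0.0354 with the deposited table (1.17), and, at the same 0.89, 0.044 with 0.5 times the floor, 0.0364 with only the miRNAs detected on all arrays, 0.0184 with those groups fitted alone, and 0.0359 with the methods' t-test. For mmu-miR-222-3p at 42 DPI it was 0.0408 with the brightest probe (0.81), 0.0225 with the 75th percentile over all miRNAs (1.44), 0.0455 with quantile normalization (1.02), 9.78e-06 with no scaling (3.48), and 0.0383 with those groups fitted alone (0.67). No scaling also called 14 DPI against sham (2.31 and 2.26), 42 against 3 DPI (2.69 and 2.41), and, for mmu-miR-221-3p, 42 against 14 DPI (1.40), and the 75th percentile over all miRNAs called 42 against 3 DPI (1.52 and 1.23). With normexp, mmu-miR-221-3p turned to -0.062 at 3 DPI against sham, and mmu-miR-222-3p to -0.14, -0.18, and -0.27 at 3, 14, and 42 DPI against sham, -0.049 from 3 to 14 DPI, -0.13 from 3 to 42 DPI, and -0.085 from 14 to 42 DPI. The normexp offset of 50 weighs most on the dim sham values, and the cause of these differences between settings was not tested.

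With the replicate number as a block, no call of the arms changed: at 14 DPI against sham the differences stayed 0.59 and 0.54 with adjusted p-values of 0.316 and 0.238 by limma, and 0.115 and 0.0914 when those groups alone were fitted. Leaving out each array in turn, mmu-miR-221-3p against sham was 0.014 to 0.44 higher for 3 DPI, 0.39 to 0.91 for 14 DPI, and 0.69 to 1.00 for 42 DPI, and mmu-miR-222-3p 0.071 to 0.42, 0.33 to 0.80, and 0.45 to 0.78. From 3 to 14 DPI the ranges were 0.15 to 0.69 and 0.082 to 0.52, from 3 to 42 DPI 0.45 to 0.87 and 0.24 to 0.57, and from 14 to 42 DPI -0.021 to 0.48 and -0.14 to 0.30. At 42 DPI against sham, leaving out 14 DPI replicate 1 called both arms (adjusted p = 0.015 and 0.0286), and leaving out 3 DPI replicate 2 or replicate 3 called mmu-miR-221-3p (adjusted p = 0.0498 and 0.044). Of the 486 miRNAs these fits called 112 higher and 144 lower, 62 and 103, and 70 and 122. Without sham replicate 1 the adjusted p of mmu-miR-221-3p was 0.188. Without 14 DPI replicate 1, mmu-miR-221-3p was also called from 3 to 42 DPI (adjusted p = 0.0419), beside 107 miRNAs called higher and 160 lower in all.

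For the difference of the arms within an array, the exact permutation p over the 4 groups was 0.00682 with normexp, and 0.0386 and 0.0245 with the dimmer probe of mmu-miR-222-3p set against the dimmer and the brighter probe of mmu-miR-221-3p, these single probes being chosen after seeing the data, as were the fits within 1 slide and the replicate block with the groups compared fitted alone; without each array it was 0.0249 (without 14 DPI replicate 2) to 0.274 (without 42 DPI replicate 1). The shift from sham to 42 DPI was -0.50 with normexp and -0.31 with the dimmer probe of mmu-miR-222-3p over the brighter of mmu-miR-221-3p, and that from 3 to 42 DPI -0.42 with normexp and -0.063 with the deposited table. With quantile normalization, added after seeing the data, they were -0.15 and -0.048. Without each array the shifts ran from -0.26 to -0.17, from -0.35 to -0.20, and, from 14 to 42 DPI, from -0.26 to -0.12. The normexp offset of 50 draws the difference toward 0 on dim arrays, so the normexp values hold a shift with brightness.

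The count of all miRNAs called at 3 DPI against sham, 0, was 95 with the deposited table. At 14 DPI against sham, 18 became 143 with the deposited table, 348 with no scaling, 370 with normexp, 8 with only the miRNAs detected on all arrays, 4 with the replicate block, 1 with no filter, and 0 with the groups fitted alone (also with the replicate block), the methods' t-test, or the slide as a block. At 42 DPI against sham, 174 became 113 with double the floor, 282 with the groups fitted alone, 53 with no filter, 418 with no scaling, 429 with normexp, and 0 with the slide as a block. From 3 to 14 DPI, 6 became 107 with the deposited table, 10 with 0.5 times the floor, 2 with no filter, 15 with no scaling, 11 with normexp, 3 with the slide as a block, and 0 with the groups fitted alone (also with the replicate block), the methods' t-test, or only slide 2. From 3 to 42 DPI, 202 became 129 with the brightest probe, 123 with double the floor, 308 with no scaling, 414 with normexp, 118 with only the miRNAs detected on all arrays, 57 with only slide 2, 114 with the slide as a block, and 0 with no filter or with the replicate block in a two-group fit. From 14 to 42 DPI, 0 became 16 with the deposited table, 170 with no scaling, 294 with normexp, and 1 with 0.5 times the floor, the 75th percentile of all miRNAs, or quantile normalization. Without each array the 6 counts ran from 0 to 1, 1 to 167, 78 to 256, 3 to 137, 0 to 267, and 0 to 1. The count at 14 DPI against sham was 167 without 14 DPI replicate 1 and 1 or 2 without 14 DPI replicate 2 or 3 or sham replicate 1 or 2. That at 42 DPI was 78 without 42 DPI replicate 1 or sham replicate 1, 82 without sham replicate 2, and 85 without 42 DPI replicate 3. From 3 to 14 DPI it was 137 without 14 DPI replicate 1 and 3 without 14 DPI replicate 3, 3 DPI replicate 1 or 2, 42 DPI replicate 3, or sham replicate 2. From 3 to 42 DPI it was 0 without 42 DPI replicate 1, 42 without 42 DPI replicate 3, 50 without 3 DPI replicate 3, 86 without 42 DPI replicate 2, and 114 without 3 DPI replicate 1. Called higher and lower at 42 DPI against sham were 70 and 104 as reported, 170 and 74 with the 75th percentile of all miRNAs, 125 and 90 with quantile normalization, 143 and 106 with the deposited table, 418 and 0 with no scaling, and 41 and 388 with normexp.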
